A study of Arabidopsis thaliana with 8 samples.

Results

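The genes described here were 50 genes of Arabidopsis whose transcript level was higher after salicylic acid (SA) than after water in both wild-type Col-0 and the npr1-1 mutant, by the labels of the arrays. They were picked on measured values. On the Affymetrix ATH1 array, where a probe set is a group of short probes that reads a transcript, 13356 genes were read by 1 or more probe sets listed with no other gene, and a gene was taken when its mean log2 level under SA exceeded that in water by at least 0.5 in Col-0 and by at least 0.5 in npr1-1. A difference of 1 on the log2 scale is a doubling. The rule also set aside 5 genes by name, and 54 genes met both thresholds when these were counted in. The SA responses that made the choice are therefore given as a description, and counts of calls on them support nothing.

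The RNA came from complete seedlings 2 weeks old, grown in MS medium under long days, whose medium was replaced with water or 2 mM SA for 24 h in light. Col-0 is the wild type, and npr1-1 is a point mutant of NPR1 in the Col-0 background. The 4 groups, Col-0 water, Col-0 SA, npr1-1 water and npr1-1 SA, each had 2 arrays that the labels give as biological replicates, so p-values measure the spread between these arrays, and their number (8) limits the precision. The replicate correlations were 0.994 to 0.996 over 22746 probe sets, those between groups 0.922 to 0.966, and the array medians lay between 1.34 and 1.48 on the log2 scale. A whole seedling mixes cell types, and a lower level can mean fewer cells of a type or less RNA per cell, which cannot be told apart here.

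SA is the plant hormone that builds up after attack by biotrophic pathogens and switches on local and systemic defense. NPR1 binds SA and acts as a coactivator of TGA transcription factors at defense promoters, and plants without its function lose much of the SA response. Other SA responses, among them part of the early induction of detoxification enzymes, are known to proceed without NPR1.

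The SA labels of npr1-1 need care. Over 22746 probe sets, the SA minus water difference in npr1-1 ran against that in Col-0 (Pearson r of −0.50, Spearman rho of −0.39, across probe sets, which are not independent replicates). Summed over the 6 measured genes (those listed with a probe set of their own) of a list of SA signaling genes, the linear level was 245 to 256 on the Col-0 water arrays and 1138 to 1229 under SA, but 802 to 851 on the arrays labelled npr1-1 water and 58.7 to 59.4 on those labelled npr1-1 SA. UGT76B1, a glycosyltransferase of the SA pathway, was the brightest of the 6 in Col-0 SA and npr1-1 water, but not in the other groups. Its means were 4.79 in water and 9.66 under SA in Col-0 and 8.90 and 2.96 in npr1-1 by label. For GRX480 the means were 6.77 and 7.98 in Col-0 and 7.91 and 3.05 in npr1-1. The list did not move as one: by limma 2 of its genes were called higher under SA and SAG101 lower (−1.09) in Col-0, and 3 were called lower and none higher in npr1-1. None of the 50 genes is on that list, but only 6 of its 36 genes were measured, and the rest could not be members. With the water and SA labels of npr1-1 exchanged, the rule picked 426 genes and 0 of these 50, so membership rests on the labels as given. The difference between the genotypes averaged over water and SA does not change when the labels within a genotype are exchanged. In this balanced design it is also a contrast that neither part of the rule used, and it is the difference that was tested for the 50 genes. Whether arrays were mixed up between the genotypes was not tested.

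**Figure D1:**
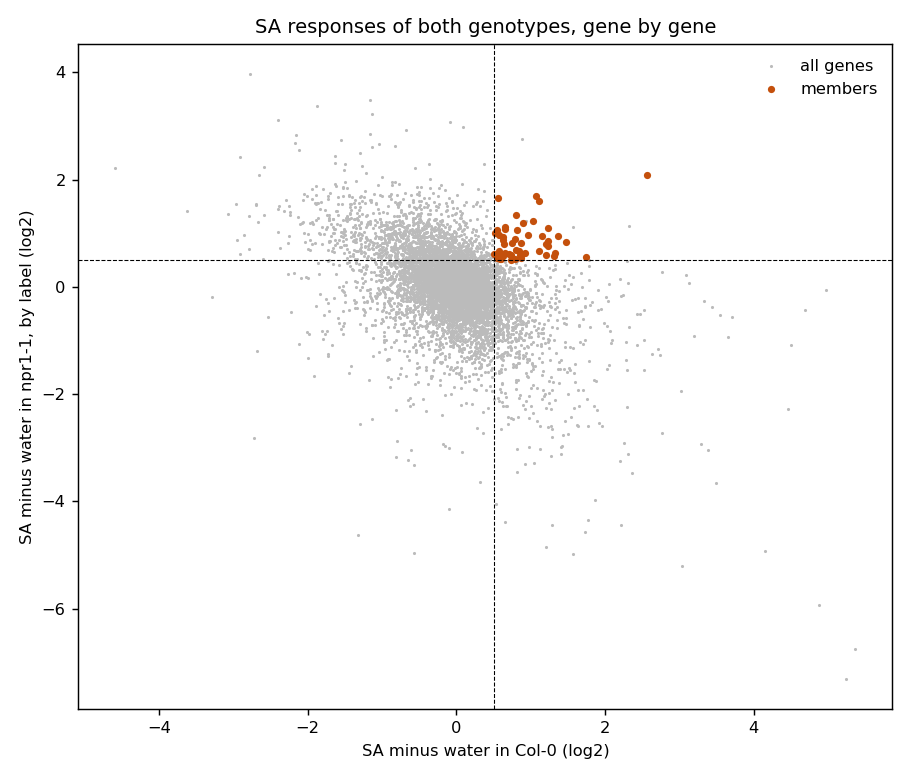
SA minus water in Col-0 (horizontal axis, log2) and in npr1-1 by label (vertical axis, log2), 1 point per gene, for 13356 genes. Members are drawn in orange right of and above the dashed lines at 0.5, where the grey points are genes set aside by name, and the grey cloud slopes downward (r of −0.50 over probe sets).

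Most of the 50 genes are known by a locus number only. The gene table of assembly TAIR10.1 held 49 of them (AT3G19660 keeps the name given by the platform), and 8 had a symbol. By locus number, chromosomes 1 to 5 carried 13, 10, 8, 5 and 13 genes, and rpl20 is a plastid gene. Each of the 50 was read by a single probe set of its own. Their mean level over the 8 arrays ran from 0.97 to 8.13 with a median of 3.49 on the log2 scale. In all, 10 were at 6 or more, a level reached by 5.6% of all genes, and 6 were under 2, where 62.4% of all genes lay.

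By the rule's own measure, the SA minus water difference of the 50 genes ran from 0.51 to 2.57 in Col-0 (median 0.81) and from 0.51 to 2.09 in npr1-1 (median 0.80). The difference was the larger one in Col-0 for 29 genes and in npr1-1 for 21. It was 1 or more in Col-0 for 16 genes, in npr1-1 for 12 and in both for 5. Both SA arrays lay above both water arrays for 49 genes in Col-0 and for 50 in npr1-1, the exception being AT5G43590 in Col-0. The rule used both contrasts, so calls on them are no test of the 50 genes. For the record, at a Benjamini-Hochberg adjusted p under 0.05 by limma, 46 of the 50 were past it in Col-0 (10.1% of all probe sets were) and 49 in npr1-1 (14.8% were), and nothing is read from these counts.

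The 5 genes at 1 or more in both genotypes were AT4G30670, AT2G35730, AT1G74010, AT2G04050 and AER. AT4G30670 had the largest SA difference of the 50 in each genotype. Its log2 level was 3.68 and 3.39 on the Col-0 water arrays, 6.2 and 6.0 on the Col-0 SA arrays, 2.34 and 2.87 on the npr1-1 water arrays and 4.74 and 4.65 on the npr1-1 SA arrays. The SA arrays stood clear of the water arrays in each genotype, by a mean of 2.57 in Col-0 and 2.09 in npr1-1, or 5.92 and 4.25 times on the linear scale, and each npr1-1 group lay below the Col-0 group of the same treatment.

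AT2G35730 read 4.31 and 4.32 in Col-0 water and 5.58 and 5.25 in Col-0 SA, but 0.92 and 1.15 in npr1-1 water and 2.95 and 2.33 in npr1-1 SA. All 4 arrays of Col-0 were above all 4 of npr1-1, and even the npr1-1 SA arrays stayed below the Col-0 water arrays. AT1G74010 had the same order, with 5.27 and 5.12 in water and 6.38 and 6.47 under SA in Col-0, and 2.68 and 2.94 in water and 4.02 and 3.81 under SA in npr1-1. In AT2G04050 the order of the genotypes was the other way round, at 1.53 and 1.17 in water and 2.49 and 2.34 under SA in Col-0 against 1.92 and 1.99 in water and 3.51 and 3.77 under SA in npr1-1. Its npr1-1 SA arrays were the highest of the 8, and its npr1-1 water arrays lay between both Col-0 groups.

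The size of the SA difference was alike in both genotypes for part of the genes and unlike for others. It differed by under 0.2 between the genotypes in 19 genes and by at least 0.5 in 9, of which 5 had the larger difference in Col-0 and 4 in npr1-1. Since these values are functions of the contrasts that chose the genes, they carry no test. The extremes were CHX16, a member of the cation/H+ exchanger family, at 1.74 in Col-0 and 0.55 in npr1-1, and AT1G56300 at 0.56 in Col-0 and 1.66 in npr1-1. On the Col-0 arrays CHX16 read 3.64 and 3.53 in water and 5.47 and 5.18 under SA, and on the npr1-1 arrays 2.24 and 2.39 in water and 2.69 and 3.04 under SA. AT1G56300 read 4.07 and 4.13 in water and 4.66 and 4.66 under SA in Col-0 and 1.58 and 1.97 in water and 3.38 and 3.49 under SA in npr1-1. In both genes all Col-0 arrays stood above all npr1-1 arrays, and the gap between the genotypes was wider under SA for CHX16 and wider in water for AT1G56300. After CHX16, the larger differences in Col-0 were those of AT5G61890 (1.31 against 0.57), AT2G42060 (1.32 against 0.64), AT5G40590 (1.47 against 0.83) and AT4G39675 (1.21 against 0.59). The larger ones in npr1-1, after AT1G56300, were those of AT2G04050 (1.69 against 1.06), AT3G61930 (1.33 against 0.80), AT1G73340 (1.06 against 0.55) and, just under 0.5 apart, AT2G35730 (1.60 against 1.11).

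Between the genotypes, most of the 50 genes were lower in npr1-1. Averaged over water and SA, npr1-1 minus Col-0 had a median of −1.12 on the log2 scale over the 50 genes and of 0.0046 over all 13356 genes. With limma fitted over all 8 arrays and an adjusted p under 0.05, 41 of the 50 were lower in npr1-1, 6 were higher and 3 were not called. Of all probe sets tested, 16.5% were called lower (3747) and 21.3% higher (4847). The fall was 1 or more in 29 genes and 2 or more in 8, from 0.37 in AT1G49310 to 3.03 in AT2G35730, with a median of 1.23 among the 41. The standard errors of the 50 genes were 0.0792 to 0.186, and the largest adjusted p among the 41 was 0.0372 by limma, for AT1G49310. All 4 Col-0 arrays lay above all 4 npr1-1 arrays in 27 of the 50, against 8.79% of probe sets, and the reverse held in 3, against 10.6%. These counts pool water and SA within each genotype, so exchanging the water and SA labels of npr1-1 cannot change them and is no check. With the labels exchanged the rule would pick 0 of these 50.

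**Figure D2:**
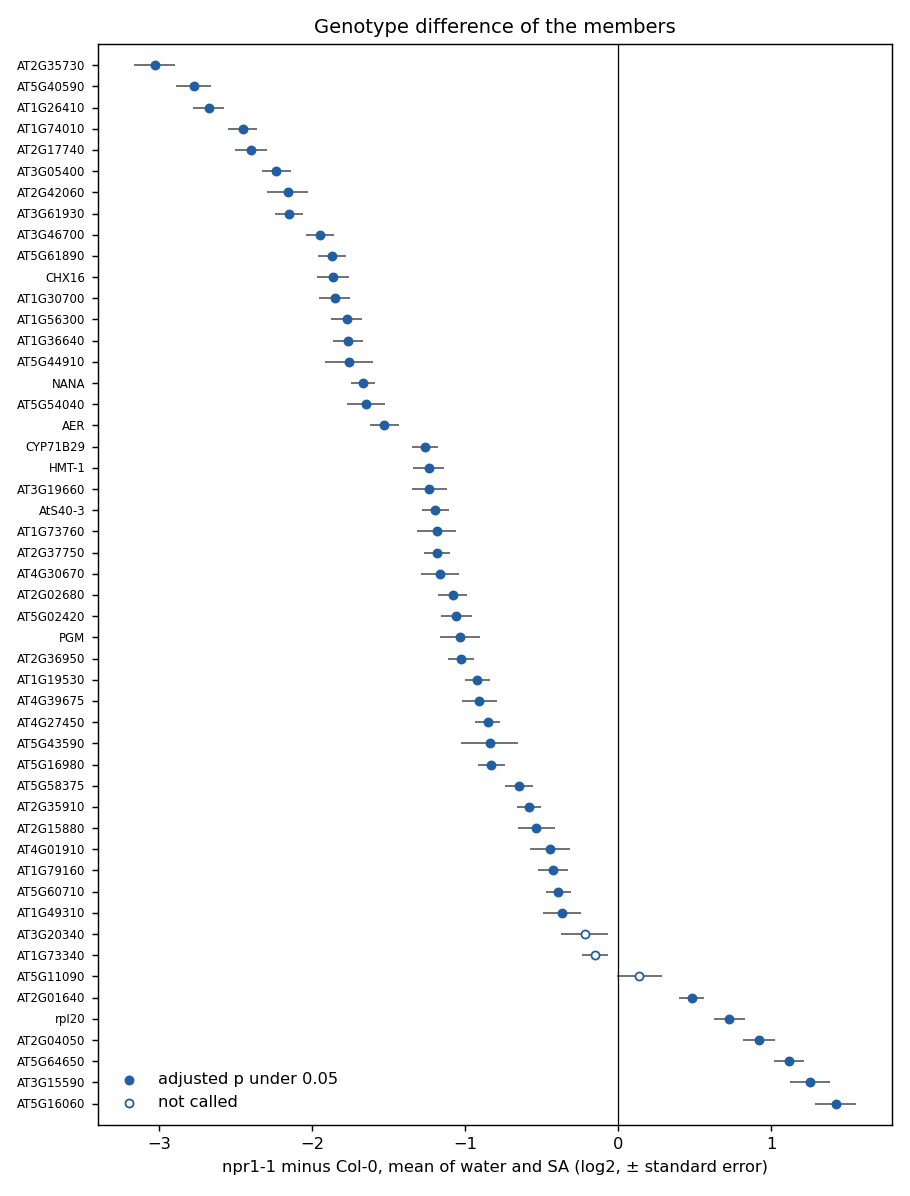
npr1-1 minus Col-0 averaged over water and SA (horizontal axis, log2) for each of the 50 genes, with its standard error from the limma fit. Filled points have an adjusted p under 0.05, and 41 of these lie left of 0 and 6 right of it.

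The order of the groups was also much the same from gene to gene, but part of it was fixed in advance. The rule put SA above water within each genotype, so only the place of the genotypes relative to each other was free. In 33 of the 50 genes the means ran, from high to low, Col-0 SA, Col-0 water, npr1-1 SA, npr1-1 water. The npr1-1 SA mean, by label, was thus below the Col-0 water mean. Genes that were higher under SA in both genotypes at any size numbered 3021, and in 24.8% of them the npr1-1 SA mean was below the Col-0 water mean. That share was 47.0% of all 13356 genes, 62.5% of the 952 genes higher by 0.5 under SA in Col-0, and 66% of the 50. It was higher still, at 75.4%, among 427 genes higher by 0.5 in Col-0 and lower by 0.5 in npr1-1. Among 132 genes lower by 0.5 in both it was 93.2%. An npr1-1 SA mean below the Col-0 water mean was thus also common outside the 50, but the share of a set depends on its thresholds. In the sets of 427 and 132 genes the thresholds put npr1-1 SA below npr1-1 water. This favours a high share there, and in the 132 Col-0 water was also put above Col-0 SA. Their shares are therefore not like that of the 50, and none of these genes can have the full order. That full order held in 752 of all 13356 genes (5.63%), a base that includes genes without SA above water. In the 3021 genes SA was above water in both genotypes, as in the 50. There an npr1-1 SA mean below the Col-0 water mean gives the full order, so its share was 24.8% (750 genes), against 66% of the 50. In 9 genes the npr1-1 SA mean lay between both Col-0 means with npr1-1 water lowest, in 4 the npr1-1 groups were each above the Col-0 group of the same treatment with Col-0 SA above npr1-1 water, in 3 both npr1-1 groups were above both Col-0 groups, and in AT1G73340 both SA means were above both water means. The 3021 genes had a median genotype difference of −0.02, with 12.4% called lower in npr1-1 and 11.8% higher.

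**Figure D3:**
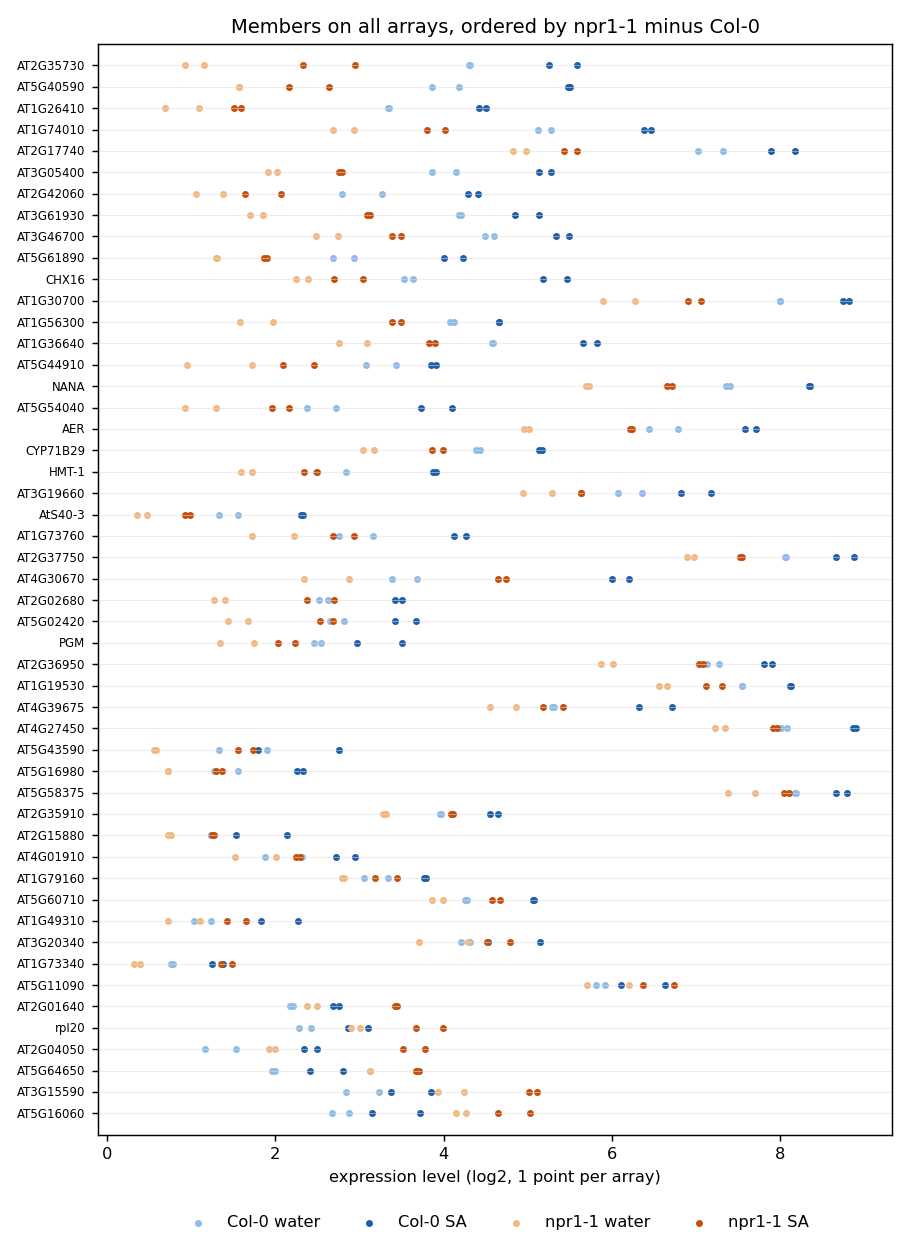
Log2 level (horizontal axis) of each of the 50 genes on all 8 arrays, 1 point per array, with genes ordered by npr1-1 minus Col-0. In the upper part of the plot the npr1-1 points (light and dark orange) lie left of the Col-0 points (light and dark blue), and in the lowest rows, from AT5G16060 up to AT2G01640, they lie to the right within each treatment.

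The 8 largest falls in npr1-1 were those of AT2G35730, AT5G40590, AT1G26410, AT1G74010, AT2G17740, AT3G05400, AT2G42060 and AT3G61930, at −3.03, −2.77, −2.68, −2.45, −2.40, −2.23, −2.16 and −2.15. AT2G35730 was 8.15 times lower in the mutant (adjusted p = 2.38e-08 by limma). AT5G40590 read 3.86 and 4.18 in Col-0 water and 5.50 and 5.48 in Col-0 SA, and 1.57 and 1.57 in water and 2.63 and 2.17 under SA in the npr1-1 groups, 6.84 times lower (adjusted p = 1.84e-08 by limma). AT1G26410 went from 3.33 and 3.35 in Col-0 water to 4.41 and 4.50 under SA, and from 0.69 and 1.1 to 1.60 and 1.51 in npr1-1. In both genes the highest npr1-1 array was under the lowest Col-0 array. AT2G17740 stood at 7.03 and 7.32 in water and 7.89 and 8.17 under SA in Col-0 and at 4.98 and 4.82 in water and 5.58 and 5.42 under SA in npr1-1. Its genotypes stood far apart with no overlap, and it was 5.27 times lower in npr1-1 (adjusted p = 2.22e-08 by limma). AT3G05400, AT2G42060 and AT3G61930 were 4.70, 4.46 and 4.44 times lower, each with no overlap of the genotypes.

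The 6 genes higher in npr1-1 were AT5G16060 (1.42), AT3G15590 (1.25), AT5G64650 (1.11), AT2G04050 (0.92), rpl20 (0.72) and AT2G01640 (0.48). AT5G16060 read 2.88 and 2.67 in Col-0 water, 3.72 and 3.15 in Col-0 SA, 4.15 and 4.27 in npr1-1 water and 5.03 and 4.65 in npr1-1 SA, 2.68 times higher in the mutant (adjusted p = 5.57e-06 by limma). AT3G15590 read 3.24 and 2.84 in water and 3.85 and 3.37 under SA in Col-0 against 3.94 and 4.25 in water and 5.11 and 5.01 under SA in npr1-1, and AT5G64650 2.00 and 1.96 in water and 2.80 and 2.41 under SA against 3.13 and 3.12 in water and 3.71 and 3.67 under SA. In these 3 genes every npr1-1 array was above every Col-0 array, SA-treated Col-0 included. In AT2G04050, rpl20 and AT2G01640 the npr1-1 water arrays overlapped the range of Col-0, and the mean difference was 1.89, 1.65 and 1.39 times. The SA difference of AT5G16060 and of AT5G64650 in Col-0 leaned on replicate 1 of Col-0 SA, without which it was 0.37 and 0.43, under the threshold.

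The 3 genes not called between the genotypes were AT3G20340 (−0.22, adjusted p = 0.320), AT1G73340 (−0.15, adjusted p = 0.190) and AT5G11090 (0.14, adjusted p = 0.529, all by limma). AT1G73340 passed the test once each array was centred on its median (−0.25, adjusted p = 0.0372 by limma). AT5G11090 read 5.92 and 5.80 in Col-0 water, 6.11 and 6.63 in Col-0 SA, 6.2 and 5.70 in npr1-1 water and 6.37 and 6.74 in npr1-1 SA. Its SD within a group reached 0.37 (n = 2), against the SA differences of 0.51 and 0.60 that placed it in the set, and all 4 groups overlapped another.

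**Figure D4:**
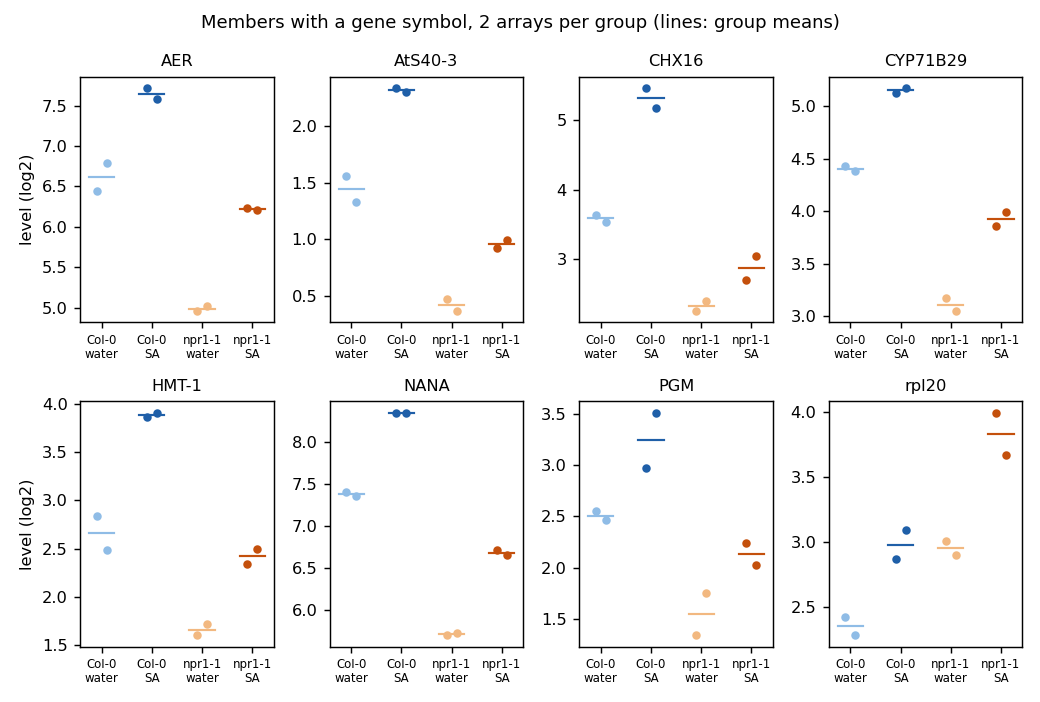
Log2 level (vertical axis, a scale of its own in each panel) of the 8 genes with a symbol in the 4 groups, with 1 point per array and a line at the mean of the 2 arrays. In 7 panels the npr1-1 means lie below the Col-0 means of the same treatment, and in rpl20 they lie above.

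The proteins of the 8 genes with a symbol are of known kind. AER encodes alkenal reductase, an enzyme that reduces reactive alkenals formed from oxidised lipids. Its arrays were at 6.44 and 6.78 in Col-0 water, 7.71 and 7.58 in Col-0 SA, 4.96 and 5.02 in npr1-1 water and 6.23 and 6.21 in npr1-1 SA. The SA difference was 1.04 in Col-0 and 1.23 in npr1-1, and both npr1-1 SA arrays remained under both Col-0 water arrays. AER was 2.88 times lower in npr1-1 (−1.53 ± 0.0958, standard error, adjusted p = 2.63e-07 by limma).

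NANA, an aspartic protease of the chloroplast, had replicates that lay close together in every group. It was at 7.40 and 7.36 in Col-0 water and 8.34 and 8.35 in Col-0 SA, and at 5.69 and 5.72 in water and 6.71 and 6.65 under SA in npr1-1. The SA difference was 0.97 in both genotypes, and the genotypes stood 1.67 apart, or 3.18 times (adjusted p = 3.43e-08 by limma). HMT-1, a homocysteine S-methyltransferase that forms methionine, read 2.84 and 2.49 in water and 3.87 and 3.91 under SA in Col-0 and 1.60 and 1.72 in water and 2.34 and 2.5 under SA in npr1-1. Its npr1-1 SA arrays overlapped the Col-0 water arrays, and the genotype difference was −1.24 (adjusted p = 1.65e-06 by limma). CYP71B29, a cytochrome P450 monooxygenase, read 4.43 and 4.38 in water and 5.13 and 5.17 under SA in Col-0 and 3.17 and 3.05 in water and 3.86 and 3.99 under SA in npr1-1, with no overlap of the genotypes and a difference of −1.26 (adjusted p = 4.09e-07 by limma).

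PGM, named as a phosphoglycerate mutase family gene (the family that includes enzymes of glycolysis), was at 2.55 and 2.46 in Col-0 water and 2.97 and 3.51 in Col-0 SA, and at 1.34 and 1.75 in water and 2.24 and 2.03 under SA in npr1-1. Its Col-0 SA replicates had an SD of 0.38, and without replicate 2 of Col-0 SA the SA difference in Col-0 was 0.47, under the threshold. AtS40-3, of the S40 family linked to leaf senescence, was dim, at 1.56 and 1.33 in water and 2.33 and 2.30 under SA in Col-0 and 0.47 and 0.36 in water and 0.92 and 0.99 under SA in npr1-1. Even its npr1-1 SA arrays were under the Col-0 water arrays. CHX16, described above, was 3.64 times lower in npr1-1 (adjusted p = 1.29e-07 by limma). The plastid gene rpl20 encodes protein L20 of the chloroplast ribosome, and was the single organelle-encoded gene of the 50. It read 2.42 and 2.28 in water and 2.87 and 3.10 under SA in Col-0 and 3.01 and 2.90 in water and 3.99 and 3.67 under SA in npr1-1, so its npr1-1 SA arrays were the highest of all. Array labelling of this type primes on poly(A) tails, which plastid transcripts mostly lack.

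Among the genes with a locus number only, the brightest were AT5G58375, AT4G27450, AT2G37750, AT1G30700 and AT1G19530, at means of 8.13, 8.04, 7.82, 7.46 and 7.37 over the 8 arrays. AT4G27450 read 8.08 and 8.00 in Col-0 water, 8.87 and 8.90 in Col-0 SA, 7.34 and 7.22 in npr1-1 water and 7.92 and 7.96 in npr1-1 SA. Its npr1-1 SA arrays, by label, came just under its Col-0 water arrays. AT1G30700 had the widest gap between genotypes of the 5, at 7.99 and 7.99 in water and 8.75 and 8.81 under SA in Col-0 and 6.27 and 5.90 in water and 6.90 and 7.06 under SA in npr1-1, 3.61 times lower in the mutant (adjusted p = 8.29e-08 by limma). AT5G58375, AT2G37750 and AT1G19530 were 1.57, 2.27 and 1.89 times lower, all 3 with every Col-0 array above every npr1-1 array. At these levels the replicate spread was small beside the differences, so the lower level in npr1-1 was not limited to dim probe sets. Of the 44 members at 2 or more over the 8 arrays, 36 were lower and 6 higher in npr1-1, while of all 5019 genes at that level 26.8% were lower and 35.6% higher.

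Further genes with a large SA difference in both genotypes followed the common order. AT5G54040 read 2.72 and 2.38 in Col-0 water, 4.1 and 3.73 in Col-0 SA, 0.92 and 1.30 in npr1-1 water and 2.16 and 1.96 in npr1-1 SA. AT1G36640 read 4.58 and 4.59 in water and 5.82 and 5.65 under SA in Col-0 and 2.76 and 3.08 in water and 3.90 and 3.83 under SA in npr1-1, and AT3G46700 read 4.49 and 4.60 in water and 5.49 and 5.34 under SA against 2.49 and 2.75 in water and 3.39 and 3.50 under SA. In all 3 the Col-0 arrays stood above the npr1-1 arrays, with genotype differences of −1.65, −1.77 and −1.95. In AT2G02680, AT5G02420 and AT1G73760 the npr1-1 SA arrays overlapped the Col-0 water arrays, and the genotype differences were −1.08, −1.06 and −1.19.

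The threshold of 0.5 cut through a continuous range. Just inside it were AT1G79160, AT5G11090 and AT4G01910, whose smaller difference of both genotypes was 0.5126, 0.509 and 0.5055. Just outside were AT1G60610 (0.4955), AT1G68820 (0.4901) and AT2G38870 (0.49). At 0.4 the rule would take 94 genes, at 0.6 it would take 32 and at 1 it would take 5. Single arrays also decided membership. Without replicate 1 of Col-0 SA the SA difference in Col-0 was 0.17 for AT5G43590 and 0.29 for AT2G15880, and without replicate 2 of Col-0 water it was 0.45 for AT1G79160. Without replicate 1 of npr1-1 water the SA difference in npr1-1 was 0.38 for AT5G58375 and 0.46 for AT1G26410, and without replicate 2 of npr1-1 SA it was 0.38 for CHX16.

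A few genotype calls were weak. Without moderation of the variances by limma, the call was lost for AT4G01910 (adjusted p = 0.15), AT1G49310 (0.196), AT5G43590 (0.113) and AT2G15880 (0.0778), and 37 of the 50 were then lower. AT4G01910 also lost its call when replicate 2 of Col-0 water, replicate 1 of Col-0 SA, or replicate 2 of npr1-1 water or of npr1-1 SA was left out (adjusted p from 0.0542 to 0.0835). AT1G49310 lost it when replicate 1 or 2 of Col-0 water, replicate 1 of Col-0 SA, replicate 1 of npr1-1 water or replicate 2 of npr1-1 SA was left out (adjusted p from 0.0503 to 0.151).

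Sets made by the same thresholds are given beside the 50. Among 427 genes higher in Col-0 and lower in npr1-1 under SA, the median genotype difference was −0.30, with 216 called lower (50.6%) and 73 higher. Among 132 genes lower under SA in both genotypes it was −0.48, with 77 called lower and 26 higher. Among 687 genes lower in Col-0 and higher in npr1-1 it was 0.53, with 84 lower and 449 higher. The 50 genes, with 82% called lower, had the lowest median of these 4 sets, and the difference between the sets was not tested.

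The genes next to the 50 on the chromosomes were looked up as well. With the gene order of TAIR10.1, 49 of the 50 had a place, and 53 measured genes directly next to one, on either side, were not members. Of these, 0 were higher by 0.5 in both genotypes under SA, and 11 were higher in both at any size, as were 22.6% of all genes. In npr1-1, 9 of the 53 were called lower and 11 higher, where 14.1% and 19.7% of all genes were, and their median genotype difference was −0.01. A single pair of members stood side by side, AER and AT5G16980.

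**Figure D5:**
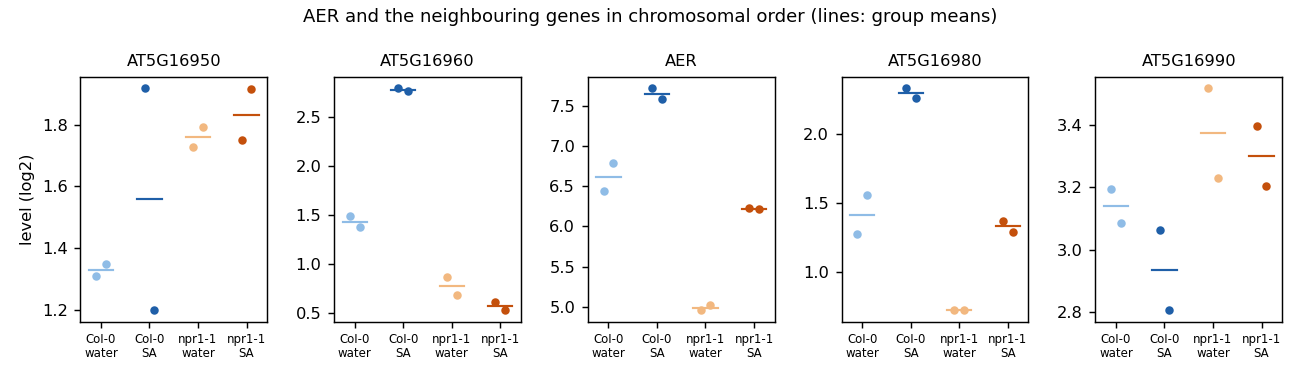
Log2 level (vertical axis, a scale of its own in each panel) of AER and its neighbours in chromosomal order, with 1 point per array and a line at the mean of the 2 arrays of a group. AER and AT5G16980 step up from water to SA in both genotypes, AT5G16960 does so in Col-0 but not in npr1-1, and the means of the outer genes differ little between water and SA.

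AT5G16980 was at 1.28 and 1.56 in Col-0 water, 2.33 and 2.26 in Col-0 SA, 0.73 and 0.73 in npr1-1 water and 1.37 and 1.29 in npr1-1 SA. Its npr1-1 SA arrays fell within the range of its Col-0 water arrays, and the genotype difference was −0.83 (adjusted p = 1.80e-05 by limma). AT5G16960, on the other side of AER, had an SA difference of 1.35 in Col-0 and −0.20 in npr1-1, and a genotype difference of −1.43 (adjusted p = 1.88e-07 by limma). AT5G16950 and AT5G16990, the outer genes, had SA differences of 0.23 and −0.21 in Col-0 and of 0.07 and −0.07 in npr1-1. Whether the probes of AT5G16980 also bind transcripts of AER was not tested.

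AER was the only one of the 50 on a list of detoxification genes, on which 10 of 54 genes were measured. Under SA, 6 of the 10 were called higher and 2 lower in Col-0, and 3 higher and 5 lower in npr1-1, by limma over all probe sets. Of the 3 called higher in npr1-1, GSTU18 and GSTU20, both glutathione transferases, were lower in Col-0 (−1.71 and −1.86). The third was AER, whose calls under SA follow from the rule that picked it and do not set it apart from the list. The others called higher in Col-0 were GSTU22, GSTU25, UGT73B4, UGT73B5 and UGT87A2, glutathione transferases and glycosyltransferases that attach a peptide or a sugar to foreign compounds, and all 5 were lower by label in npr1-1 under SA. Lists of hypoxia and senescence genes held no member, but only 2 of 15 and 2 of 17 of their genes were measured. Their lack of members therefore says little about such genes among the 50. WRKY6, a transcription factor active in senescence and on the latter list, was 0.95 higher under SA in Col-0 and 0.27 in npr1-1, with a genotype difference of −1.47 (adjusted p = 1.06e-07 by limma). SAG29, the other gene of that list, did not pass the test in either genotype under SA (−0.28 in Col-0, 0.32 in npr1-1) or between the genotypes (0.10, adjusted p = 0.464 by limma).

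Other cell markers and RNA quality were set beside these values. Of 8 measured photosynthesis genes, 7 were called lower under SA in Col-0, and 7 higher under SA and 7 higher over both treatments in npr1-1. Their summed linear level was 4600 to 4722 in Col-0 water, 2142 to 2199 in Col-0 SA, 3531 to 3780 in npr1-1 water and 5276 to 5633 in npr1-1 SA. The root marker EXPA7 was at 0.50 to 0.66 in group means and the flower genes AMS and SPL at 0.11 to 0.61, near the bottom of the scale, and none of 11 vasculature markers was listed with a probe set of its own. Of 3 measured guard cell and epidermis genes, FMA was called lower under SA in Col-0 (−0.58, adjusted p = 0.044 by limma). None of the 3 was called under SA in npr1-1 or between the genotypes. EXPA7 was the single root marker with a probe set listed for it, so the label of complete seedlings could not be checked against several. On the log2 scale, the probe sets near the end and near the start of the actin transcript, a control of RNA integrity, were 3.66 apart in Col-0 water and 5.0, 5.08 and 5.01 in Col-0 SA, npr1-1 water and npr1-1 SA. In the same order the gap was 0.63, 1.17, 1.07 and 1.14 for GAPDH, and 1.03, 1.46, 0.96 and 1.64 for ubiquitin. Col-0 water thus had the smallest gap for actin and GAPDH, and npr1-1 water for ubiquitin. The part of leaf transcripts and of RNA integrity in the level of the 50 genes was not tested.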

How the data were processed

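Expression was measured on 8 Affymetrix ATH1 arrays, and the log2 values deposited by the authors, 1 per probe set and array, were used as they stand. For the scan and the summary over probes, GCOS and RMA (through affylmGUI) are stated in the study's methods and Affymetrix Expression Console in the submitters' processing notes. The sources used here give neither their versions, nor which of them made the values, nor whether a constant was taken off. The range was −0.14 to 11.53 with no gaps. Detection calls and background were not used.

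Control probe sets (64) were left out, with no filter on the other 22746. Of these, 13513 were listed with 1 gene, 503 with several and 8730 with none. For the 146 genes with more than 1 such probe set, the brightest over the 8 arrays was taken. Names were updated through the TAIR10.1 gene table, which matched 13286 of 13356 genes. The build behind the array's annotation is not stated, so this table served for names and gene order alone. NPR1 and PR1 are not analysed here.

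Group means were fitted with limma 3.58.1 in R 4.3.3 (lmFit, contrasts.fit, eBayes), with p adjusted over all probe sets by the method of Benjamini and Hochberg. The fit was tested on simulated data. Counts and figures were made with Python 3.11.15, pandas 2.3.3, numpy 2.4.6 and matplotlib 3.10.9. The members and the gene lists were chosen with earlier results of these data known. The genes named were the 15 with the largest smaller-of-both SA difference, the 5 with the largest and the 5 with the smallest difference of that response between genotypes, the 8 highest and 8 lowest called between genotypes (6 were higher), the 5 brightest, 3 on each side of the threshold, and members on a list. The genes with a symbol, and those decided by a single array, were named after their values were seen. Alternatives were another normalization, centring, a filter on dim probe sets, other thresholds, other variance models, a replicate block and each array left out in turn.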

Additional observations from a re-analysis of the deposited data

How the results depend on the processing

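The genotype difference of the members changed little. Of the 50 genes, 41 were lower and 6 higher in npr1-1 with quantile normalization, with the dimmest 25% of probe sets left out and with a trended and robust variance, 42 and 6 after centring the arrays on their medians, 37 and 6 without moderation, and 39 and 6 at an adjusted p under 0.01. With each array left out in turn, 39 to 41 were lower and 6 higher, and 7500 to 8069 probe sets were called against 8594. Membership was less stable. The rule took 94 genes at a threshold of 0.4, 32 at 0.6 and 5 at 1, 57 with quantile normalization (47 of the 50 among them), 51 after centring (46 among them), and 48 to 65 with an array left out (42 to 48 among them). With the npr1-1 water and SA labels exchanged, an alternative chosen after seeing the data, it took 426. On the contrasts that the rule used, 30 members were called higher under SA in Col-0 without moderation (46 with it) and 27 in npr1-1 (49 with it). With an array left out these were 38 to 46 and 38 to 49. The cause was not tested.

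The replicate number did not pair the arrays, since the deviations of equally numbered arrays correlated between −0.19 and 0.08. With the replicate block, 41 members were lower and 6 higher, 8444 probe sets were called, and 46 and 47 members were higher under SA in Col-0 and npr1-1. Promoter motifs were not run, since no promoter sequence was used here. The deposited values hold no background signal, so how far the dim members stand above it is not known.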
